A study of Homo sapiens with 8 samples.

Results

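The promoters of 57 genes of the autophagy and lysosome system were examined for PML::RARA binding, as recorded in a list of 15412 reproducible Cut&Run peaks. The genes comprised 34 of the autophagy machinery, 20 of the lysosome and the 3 transcription factors TFEB, TFE3 and MITF, and were taken by name from the gene label that the deposited list gives to a peak at a promoter. Of the 57 genes, 36 carried at least 1 labelled peak, with 41 peaks among the 7169 labelled peaks of the list, and 21 had none. The whole list labelled 6546 genes. The genes were listed by their function and not by a threshold on any measured value.

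The study used U937-PR9, a human monocytic cell line that carries a PML::RARA fusion transgene under a zinc-inducible promoter. PML::RARA is the fusion protein of acute promyelocytic leukemia. Cells received 100 μM ZnSO4, which induces the transgene, or sterile water, for 5 h, and nuclei were then profiled by Cut&Run, in which a nuclease tethered to an antibody releases the bound DNA for sequencing. The series held 8 libraries, 2 replicates each of induced and uninduced cells with an antibody against PML::RARA or against RARA, and the peaks described here came from the 2 induced anti-PML::RARA libraries, merged by the authors into 1 list. All groups carry the transgene, and the 5 h of zinc that switch it on are part of every induced sample. The list gives 1 value per peak for both replicates, so no spread between replicates could be computed, no test was made, and the counts and medians are a description of this list. Uninduced cells, the RARA antibody and read depth were not analysed here. The list holds no expression value, so the monocytic identity of the cells could not be checked against markers.

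Autophagy encloses cytoplasmic cargo in a double membrane, the autophagosome, and delivers it to the lysosome. The ULK kinase complex and the class III phosphatidylinositol 3-kinase complex start the process, ATG9 and ATG2 supply membrane, a conjugation system attaches ATG8 proteins to the growing membrane, and cargo receptors link the load to ATG8. The lysosome degrades the load with cathepsins, glycosidases and their activators. TFEB, TFE3 and MITF form the MiT/TFE family of transcription factors, which bind an E-box, CACGTG, and in its extended form, TCACGTGA, the core of the CLEAR element found at many lysosomal promoters. In monocytes and macrophages both systems serve the breakdown of ingested material.

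Bases within 150 bp of the apex of each peak, the interval of largest signal, were searched on both strands for the E-box and 6 other motifs. E-box matches are given first because the MiT/TFE factors are themselves among the genes described. The E-box was present in 7 of the 41 peaks, those of ATG3, ATG5, CTSD, GLA, MCOLN1, UVRAG and WIPI1. This share of 17.1% had an interval of 8.53 to 31.3%, which covers the 10.2% of other labelled peaks. Around the peak centre the 2 shares were 9.76% and 8.0%. The extended form TCACGTGA was in 7.32% of member peaks (2.52 to 19.4%), beside 1.85% of other labelled peaks. This form, every match of which also holds the E-box, was present in 3 of the 7 peaks. GLA, which encodes alpha-galactosidase A, held it at 2 places, 9 and 42 bp from the apex. MCOLN1, which encodes a calcium channel of the lysosomal membrane, also held it at 2 places, 22 and 49 bp from the apex. ATG3, which encodes the enzyme that transfers ATG8 to lipid, held it 49 bp from the apex, within the annotated 5′ UTR. The stretches shown are from hg19, are written 5′ to 3′ on the strand of the gene, and have the match in capitals. GLA lies at chrX:100663127-100663209 on the minus strand, MCOLN1 at chr19:7587428-7587509 on the plus strand and ATG3 at chr3:112280787-112280816 on the minus strand.
GLA: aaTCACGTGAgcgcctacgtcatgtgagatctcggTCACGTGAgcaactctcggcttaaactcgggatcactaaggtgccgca
MCOLN1: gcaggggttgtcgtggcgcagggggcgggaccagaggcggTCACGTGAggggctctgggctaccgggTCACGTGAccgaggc
ATG3: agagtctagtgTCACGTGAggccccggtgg

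The other 4 E-box peaks held CACGTG without the extended form, 1 match each. The match lay 25 bp from the apex at CTSD, 66 bp at WIPI1, 109 bp at UVRAG and 136 bp at ATG5. The stretches are shown so that the bases beside the match can be compared with those above. In capitals is the E-box. CTSD lies at chr11:1785185-1785244 and ATG5 at chr6:106773667-106773748, both on the minus strand. WIPI1 lies at chr17:66453948-66454033 on the minus strand and UVRAG at chr11:75525850-75525935 on the plus strand.
CTSD: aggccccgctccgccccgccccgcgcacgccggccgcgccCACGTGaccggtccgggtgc
WIPI1: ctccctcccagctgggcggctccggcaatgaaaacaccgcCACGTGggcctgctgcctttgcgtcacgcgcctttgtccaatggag
UVRAG: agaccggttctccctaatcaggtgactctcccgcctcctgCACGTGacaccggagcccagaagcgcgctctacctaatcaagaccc
ATG5: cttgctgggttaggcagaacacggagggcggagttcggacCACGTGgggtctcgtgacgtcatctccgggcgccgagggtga

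A purine-rich motif of the type bound by the myeloid factor PU.1, GAGGAAG, was found in 9 of the 41 peaks, 7 of them at lysosome genes. The member share was 21.95% (12 to 36.7%), beside 17.1% of other labelled and 29.4% of unlabelled peaks. Stretches from 6 of these 7 peaks, chosen after the matches were seen, show the motif at 6 different genes. The motif reads CTTCCTC on the opposite strand and both forms are in capitals. LAPTM5, which encodes a lysosomal transmembrane protein of blood cells, lies at chr1:31229556-31229701 in its own intron 1. The upstream peak of PSAP, which encodes the precursor of the saposins, lies at chr10:73612301-73612504, and that of CTSC, a cathepsin that activates granule proteases of myeloid cells, at chr11:88071646-88071763. LAPTM4A lies at chr2:20251430-20251516. These 4 genes are on the minus strand. LAMP1 lies at chr13:113951206-113951325 and GRN, which encodes progranulin, at chr17:42422456-42422542, both on the plus strand.
LAPTM5: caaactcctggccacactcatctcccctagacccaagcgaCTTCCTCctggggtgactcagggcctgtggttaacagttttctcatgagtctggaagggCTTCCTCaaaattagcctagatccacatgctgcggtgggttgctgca
PSAP upstream: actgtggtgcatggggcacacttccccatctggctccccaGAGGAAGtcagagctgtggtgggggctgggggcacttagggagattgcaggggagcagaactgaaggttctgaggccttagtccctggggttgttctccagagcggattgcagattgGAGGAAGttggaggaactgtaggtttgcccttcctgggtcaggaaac
CTSC upstream: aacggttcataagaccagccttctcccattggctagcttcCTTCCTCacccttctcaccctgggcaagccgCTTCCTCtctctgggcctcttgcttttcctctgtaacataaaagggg
LAPTM4A: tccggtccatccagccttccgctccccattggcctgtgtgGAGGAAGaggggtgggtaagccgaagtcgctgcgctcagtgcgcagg
LAMP1: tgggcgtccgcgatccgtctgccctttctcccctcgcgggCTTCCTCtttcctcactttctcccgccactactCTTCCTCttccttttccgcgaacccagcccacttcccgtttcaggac
GRN: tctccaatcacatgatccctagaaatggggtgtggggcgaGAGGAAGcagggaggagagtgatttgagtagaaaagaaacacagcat

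Labelled peaks were found at 36 of the 57 genes, or 63.2% (Wilson 95% interval 50.2 to 74.5%, which covers the counting of genes only). Among all 20090 annotated protein-coding genes, silent ones included, the share was 30.0%. Autophagy genes had a labelled peak in 19 of 34 cases, 55.9% (39.5 to 71.1%), and lysosome genes in 15 of 20, 75% (53.1 to 88.8%), so the intervals of the 2 classes overlapped. Lists of other widely used gene families stood closer to the members than to all genes. A labelled peak was present at 20 of 39 proteasome subunit genes, 51.3% (36.2 to 66.1%), and at 37 of 73 RAB GTPase genes, 50.7% (39.5 to 61.8%).

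**Figure D1:**
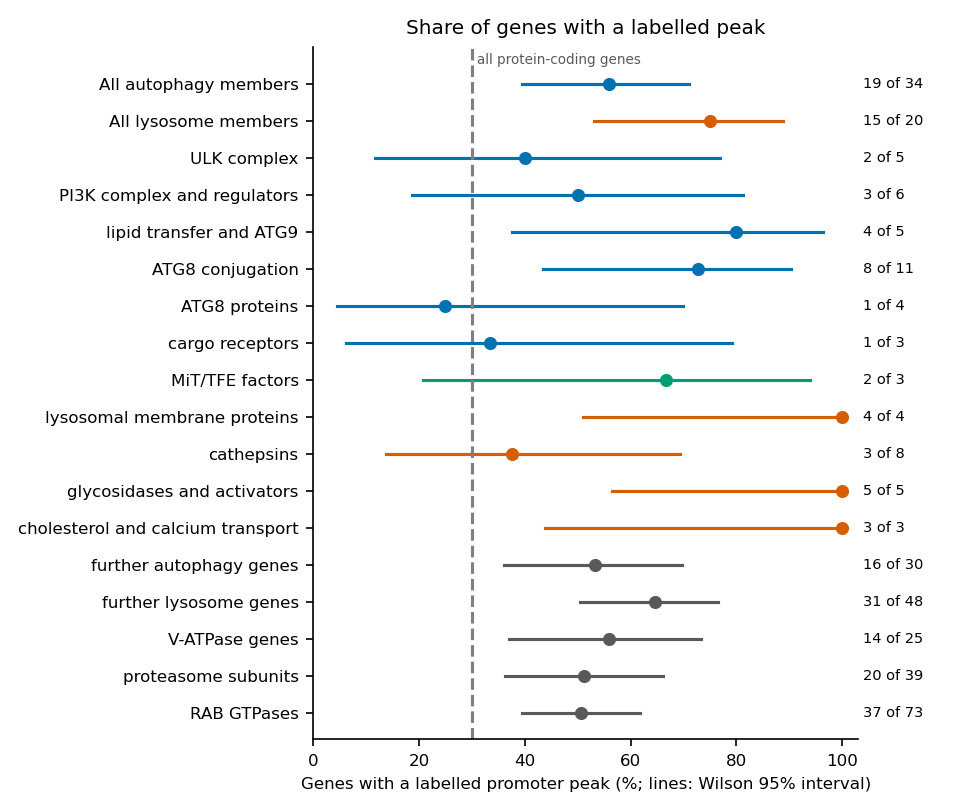
Share of genes with a labelled promoter peak (x axis, %) in each gene group (rows), where points are the share, lines the Wilson 95% interval, and the dashed line all protein-coding genes (30.0%). All 12 genes of the lysosomal membrane, glycosidase and transport groups carried a peak, against 3 of 8 cathepsins and 1 of 4 ATG8 proteins.

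The role groups of the autophagy class ran from 1 of 4 genes labelled to 4 of 5, and each group holds few genes. Of the ULK complex, 2 of 5 genes had a peak, of the phosphatidylinositol 3-kinase complex and its regulators 3 of 6, of the lipid transfer and ATG9 group 4 of 5, and of the ATG8 conjugation system 8 of 11. Of the ATG8 proteins themselves, 1 of 4 had a peak, and of the cargo receptors 1 of 3. Within the lysosome class, all 4 membrane proteins, all 5 glycosidases and activators, and all 3 genes of cholesterol and calcium transport had a peak. Of the 8 cathepsins, 3 had one. TFEB and TFE3 were labelled and MITF was not.

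Peak height, the largest signal within a peak in the units of the deposited list, was similar in members and in the rest of the labelled list. The median was 22 over the 41 member peaks, with quartiles at 19 and 38, and 26 over the 7128 other labelled peaks, with quartiles at 20 and 35. Of the member peaks, 17, or 41.5% (27.8 to 56.6%), exceeded the median of the others, against 48.6% of the others themselves. The members held both low and high peaks. At or below a height of 20, the lower quartile of the others, were 16 member peaks, 39% against 25.9%, and above their upper quartile were 11, 26.8% against 23.2%. Heights of autophagy and lysosome peaks overlapped over their whole range, from 16 to 56 in both classes, with medians of 22 (quartiles 18.5 and 40) and 21.5 (quartiles 19 and 27.75). Of the 19 autophagy peaks, 10 exceeded the lysosome median, 52.6% (31.7 to 72.7%). This interval takes the lysosome median as fixed and leaves out the spread of the lysosome peaks. Heights over 40, a limit set after the values were seen, were reached by 5 autophagy, 3 lysosome and 1 TFEB peak. Of the other labelled peaks, 84.4% were lower than 40 and 87.2% lower than 42, the next height among members.

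**Figure D2:**
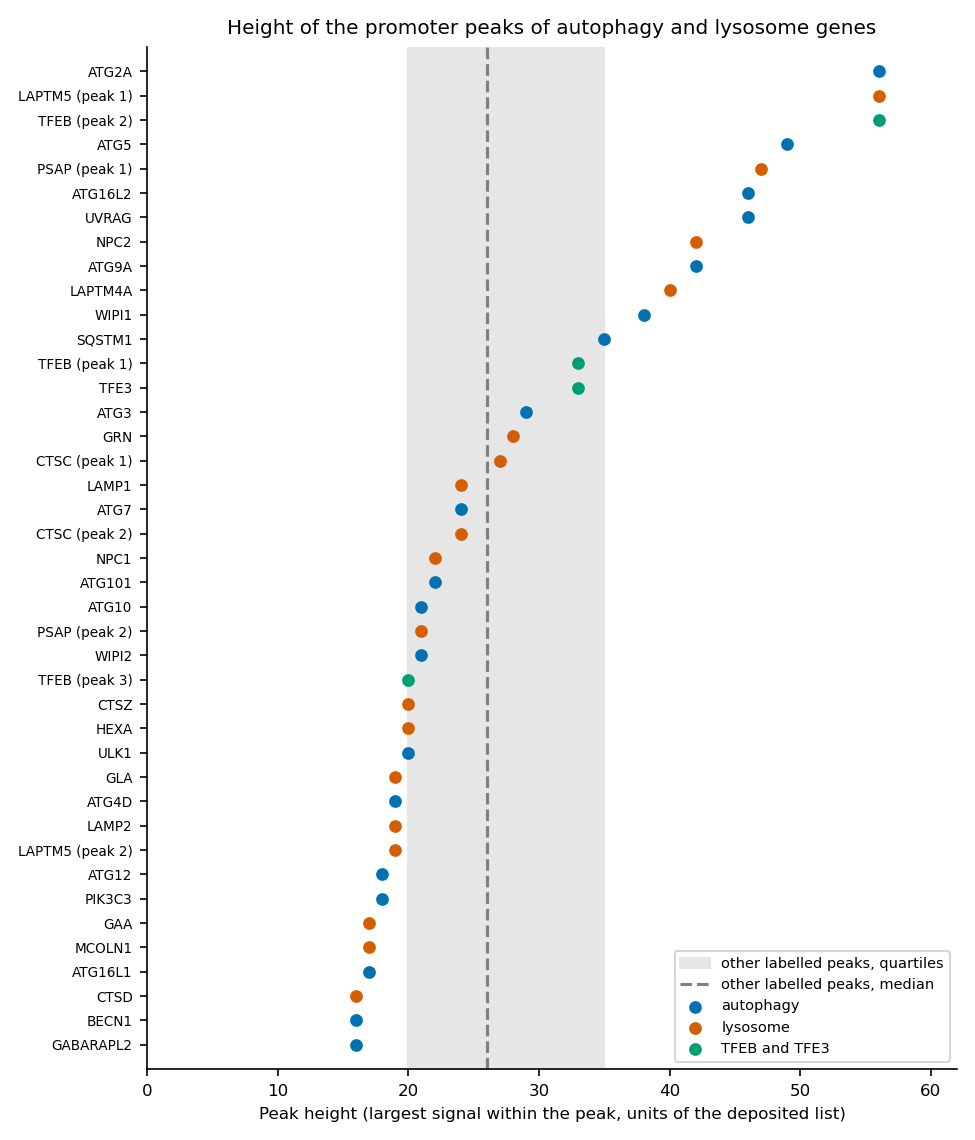
Height of each of the 41 member peaks (x axis, units of the deposited list; rows are genes, with peaks of 1 gene numbered by position), coloured by class, beside the median (dashed line, 26) and quartiles (grey band, 20 to 35) of the 7128 other labelled peaks. Autophagy and lysosome peaks are interleaved from 16 to 56.

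Peak width also resembled the rest of the list. The median width was 1140 bp for members (quartiles 689 and 1527 bp) and 1108 bp for the other labelled peaks (quartiles 770 and 1540 bp), and 21 member peaks, 51.2% (36.5 to 65.7%), were wider than the median of the others, against 49.9%. Above the upper quartile of width were 9 member peaks, 22.0% against 25.0%. Autophagy peaks had a median of 872 bp (quartiles 585 and 1520 bp) and lysosome peaks 1098.5 bp (quartiles 731.5 and 1410.2 bp). Of the 19 autophagy peaks, 8 were wider than the lysosome median, 42.1% (23.1 to 63.7%, with that median taken as fixed). Total signal, the sum over the peak, had a median of 9681 in members and 10082 in the others.

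The relation of height to width had a different size in the 2 classes. Spearman's rho between them was 0.79 over the 19 autophagy peaks and 0.09 over the 18 lysosome peaks, beside 0.45 over the other labelled peaks. These are descriptions across peaks of the same 2 libraries, and the difference between the classes was not tested. In the lysosome class, high peaks of under 1 kb at PSAP and LAPTM4A stood beside the low and wide peak of CTSD.

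**Figure D3:**
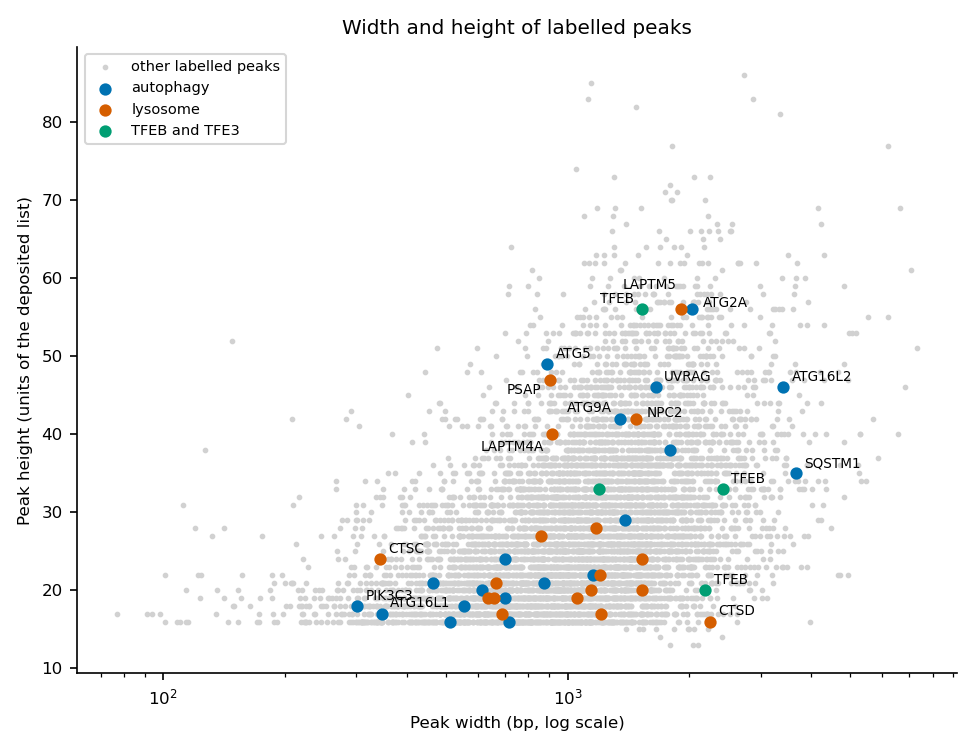
Width (x axis, bp, log scale) against height (y axis, units of the deposited list) of the 41 member peaks, coloured by class, over the 7128 other labelled peaks in grey. Member peaks lie within the cloud of the others, with SQSTM1 and ATG16L2 at its wide edge and PIK3C3 at its narrow edge.

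The labelled genes of the ULK complex had peaks below 26, the median height of other labelled peaks. ULK1, the kinase that receives nutrient signals, had a height of 20 over 616 bp at chr12:132378731-132379346. ATG101, a further subunit of the ULK complex, had a peak of height 22 and width 1157 bp at chr12:52462959-52464115. ULK2, RB1CC1 and ATG13, which complete the complex, had no labelled peak. In the phosphatidylinositol 3-kinase group, heights ran from 16 to 46. BECN1, the scaffold of the complex, was at the low end with a height of 16 over 717 bp (chr17:40975821-40976537), in a region that also holds the start of PSME3. PIK3C3, the catalytic subunit, had the narrowest member peak, 302 bp, with a height of 18 (chr18:39534980-39535281), and only 5.55% of all peaks were narrower. UVRAG, a regulatory subunit, stood apart from both with a height of 46 over 1651 bp (chr11:75525287-75526937), higher than 92.8% of all peaks.

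The lipid transfer and ATG9 group held the highest single peak of the autophagy class, that of ATG2A, and had a median height of 40 over 4 peaks. ATG2A, which moves lipid into the growing membrane, had a peak of height 56 and width 2032 bp (chr11:64683081-64685112), higher than 97.9% of all peaks, and the start of PPP2R5B lies in the same region. ATG9A, a lipid scramblase, had a height of 42 over 1347 bp (chr2:220093596-220094942) in a region shared with the start of ANKZF1. The 2 WIPI proteins, which read phosphatidylinositol 3-phosphate on the membrane, differed. WIPI1 had a height of 38 over 1792 bp, and WIPI2 a height of 21 over 465 bp (chr7:5229594-5230058). ATG2B, the paralog of ATG2A, had no labelled peak, and the nearest apex lay 28521 bp from any of its start sites.

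The 8 labelled genes of the conjugation system spanned heights from 17 to 49. ATG5, whose conjugate with ATG12 drives the attachment of ATG8 to lipid, had the highest peak, 49, over 891 bp (chr6:106772948-106773838). ATG16L2 followed with a height of 46 over 3411 bp (chr11:72523645-72527055), wider than 99.2% of all peaks, and its total signal of 63420 was the largest of the members and exceeded 99.8% of the list. Its paralog ATG16L1, which places the ATG12 and ATG5 conjugate on the membrane, had a height of 17 over 347 bp (chr2:234160062-234160408) and a total signal of 2948, at the other end of the same range. ATG3 had a height of 29 over 1389 bp (chr3:112280004-112281392) at a promoter shared with SLC35A5. ATG7, ATG10, ATG4D and ATG12 lay between heights of 18 and 24. The 3 other ATG4 proteases, ATG4A, ATG4B and ATG4C, had no labelled peak.

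The ATG8 proteins and the cargo receptors were the least labelled groups. This ranking rests on the label, as MAP1LC3B and NBR1 had a peak over the canonical start that carried another label or none. GABARAPL2 was the single labelled ATG8 gene, with a height of 16 over 513 bp (chr16:75599889-75600401), at the low end of the list, with 0.13% of all peaks lower. SQSTM1, which encodes the cargo receptor p62, had the widest member peak, 3665 bp, with a height of 35 (chr5:179245301-179248965). It was wider than 99.4% of all peaks, and its apex lay in intron 1 of the canonical transcript, 637 bp upstream of the nearest annotated start.

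TFEB carried 3 labelled peaks, the most of any member, at 3 separate groups of its annotated start sites. The peak at chr6:41690703-41692229 had a height of 56 over 1527 bp. The peak at chr6:41673600-41676016 had a height of 33 over 2417 bp, and the one nearest the canonical start, at chr6:41701348-41703537, a height of 20 over 2190 bp. Gaps of 14686 and 9118 bp separated them, and all 3 apexes lay in intron 1 of the canonical transcript. The highest of the 3 was thus at an internal start, 11914 bp inside the gene from the canonical one. TFE3 had 1 peak of height 33 and width 1199 bp (chrX:48900338-48901536). MITF had none, with the nearest apex 653169 bp from its start sites.

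In the lysosomal membrane group, LAPTM5 was set apart by its signal. Its main peak at chr1:31229220-31231127 had a height of 56, a width of 1908 bp and a total signal of 42201, which exceeded 99% of the list, and its apex lay in intron 1, 943 bp downstream of the nearest start. A second labelled peak of height 19 and width 634 bp lay upstream at chr1:31231628-31232261. LAPTM4A, a related membrane protein, had a height of 40 over 914 bp (chr2:20251049-20251962). LAMP1 and LAMP2, among the most abundant proteins of the lysosomal membrane, were lower. LAMP1 had a height of 24 over 1526 bp and LAMP2 a height of 19 over 657 bp (chrX:119602718-119603374).

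The 3 labelled cathepsin genes had heights from 16 to 27. CTSC had 2 peaks 126 bp apart, of height 27 over 859 bp at its start (chr11:88070485-88071343) and of height 24 over 343 bp upstream (chr11:88071470-88071812). CTSD, the main aspartyl protease of the lysosome, had a height of 16 over 2245 bp (chr11:1783678-1785922), so that it was wider than 95.6% of all peaks and higher than 0.13%. CTSZ had a height of 20 over 1532 bp.

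Among glycosidases and their activators, PSAP had the highest peak and the others ran from 17 to 28. PSAP had a height of 47 over 903 bp (chr10:73610722-73611624) and a second labelled peak of height 21 over 664 bp, 417 bp farther upstream (chr10:73612042-73612705). GAA, the acid alpha-glucosidase, had a height of 17 over 1210 bp (chr17:78074948-78076157), GLA a height of 19 over 1057 bp (chrX:100662454-100663510), HEXA, a subunit of beta-hexosaminidase, a height of 20, and GRN a height of 28. The region of GLA also holds the start of HNRNPH2. Of the transport genes, NPC2, which carries cholesterol within the lysosome, had a height of 42 over 1477 bp (chr14:74959443-74960919) at a promoter shared with ISCA2. NPC1, its partner in the membrane, had a height of 22, and MCOLN1 a height of 17 over 689 bp (chr19:7587173-7587861).

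Total signal, which depends on both height and width, reordered the high peaks. Next to ATG16L2 and LAPTM5, SQSTM1 had 37203 over its 3665 bp. The other peaks of height 40 or more ranged from 12178 at PSAP to 25058 at ATG2A, with 13131 at LAPTM4A, 17410 at ATG5, 17466 at ATG9A, 17899 at NPC2, 20426 at TFEB and 21906 at UVRAG. The 2 other TFEB peaks reached 21310 and 19648, close to the highest of the 3 despite their lower heights, and TFE3 reached 14790. CTSD, with a height of 16, reached 13803, more than PSAP. ATG3 had 17119 and GAA 10111. At the low end, the narrow peaks of PIK3C3, ATG16L1, CTSC upstream and GABARAPL2 held 1985, 2948, 3246 and 3316. WIPI2, ULK1, MCOLN1, BECN1, ATG101 and GLA lay between 4480 and 7650. The CTSC peak at the start held 9423, and the upstream peaks of LAPTM5 and PSAP 4686 and 4997, beside 5303 at LAMP2.

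More than 1 labelled peak was found at 4 of the 36 labelled members, TFEB, LAPTM5, PSAP and CTSC, beside 8.42% of all labelled genes. The lysosome genes of this kind, LAPTM5, PSAP and CTSC, each had a peak at the start and a lower one upstream, separated by 126 to 500 bp.

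Member apexes lay close to annotated start sites, as did those of other labelled peaks. The median distance from the apex to the nearest start of the same gene was 102 bp in both sets. Distances of the others cover the 6941 of the 7128 peaks whose labelled gene has an annotated start. Within 100 bp were 20 of 41 apexes, 48.8% against 49.5% of the others, and within 250 bp were 28, 68.3% against 76.2%. Upstream of the nearest start were 31 apexes and downstream 9, with that of CTSC on the start itself. Apexes over 1 kb away belonged to the upstream peaks of PSAP, 1456 bp, and LAPTM5, 1240 bp. A start of another protein-coding gene lay within 9 of the 41 peaks, 22% against 21.2% of the other labelled peaks, and signal there cannot be assigned to 1 of the genes.

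**Figure D4:**
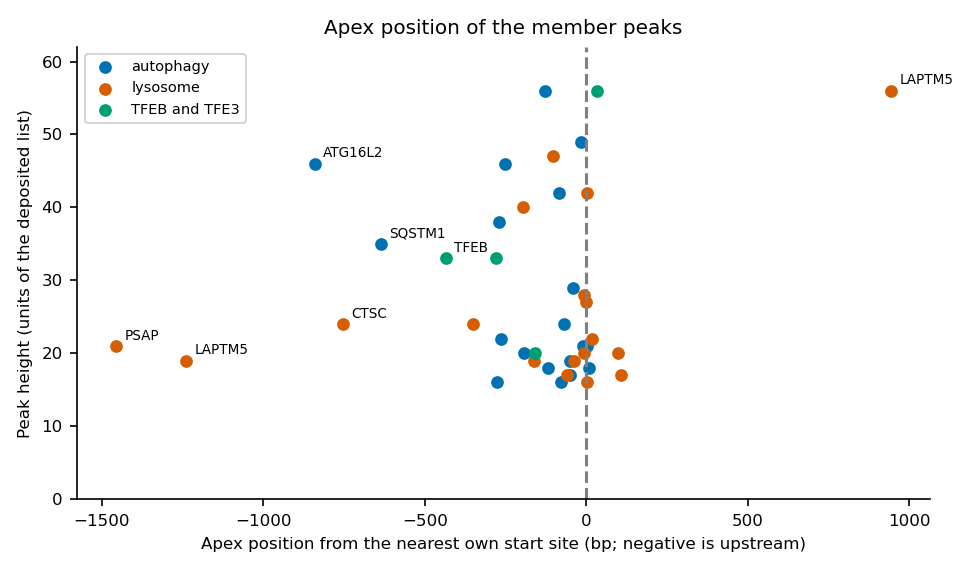
Position of the apex relative to the nearest start site of the same gene (x axis, bp, negative is upstream) against peak height (y axis, units of the deposited list) for the 41 member peaks, coloured by class. Of the apexes, 28 lie within 250 bp of a start, and the farthest is the upstream peak of PSAP at 1456 bp.

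The 21 members without a label were not all without a peak at a start site. ATG4A and ATG13 have divergent neighbours, and the peak over the start carried the name of the neighbour. At ATG4A the PSMD10 peak (chrX:107334389-107335496) had a height of 31, with its apex 134 bp from the canonical ATG4A start. At ATG13 the HARBI1 peak (chr11:46638396-46639742) had a height of 16, with its apex 278 bp away. MAP1LC3B, which encodes the ATG8 protein used most often to mark autophagosomes, had 3 peaks over the gene. The FBXO31 peak covered its canonical start with a height of 40 over 2039 bp (chr16:87424893-87426931), 1 unlabelled peak of height 49 over 2042 bp (chr16:87416490-87418531) lay 55 bp from an alternative start, and a further unlabelled peak of height 58 lay between them. NBR1, a cargo receptor, had an unlabelled peak of height 40 over 781 bp (chr17:41322866-41323646) with its apex 44 bp from the canonical start. At CTSH an unlabelled peak of height 37 (chr15:79229240-79230217) lay 9 bp from an alternative start in intron 3 and 7804 bp from the canonical start. With these genes, 41 of the 57 members had an apex within 1 kb of a start site, beside 39.3% of all protein-coding genes, and 40 within 1 kb of the canonical start, beside 35.1%.

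The other 16 unlabelled members had no apex within 1 kb of any start site. The PHF23 peak ended 83 bp from GABARAP, with its apex 2059 bp from the nearest start. CTSB had 2 unlabelled peaks in intron 1, of heights 20 and 21, the nearer apex 3142 bp from a start. For CTSA, ULK2, CTSL, ATG4B, AMBRA1, ATG2B, OPTN and CTSS the nearest apex lay 4981, 8820, 10358, 16386, 23150, 28521, 30148 and 50747 bp from a start. For ATG14, PIK3R4, GABARAPL1, ATG4C, RB1CC1 and MITF it lay over 100 kb away. Among the 5 unlabelled cathepsins, only CTSH thus had an apex within 1 kb of a start.

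At several labelled lysosome genes an unlabelled peak farther into the gene was higher than the labelled one. HEXA had an unlabelled peak of height 47 in intron 1 (chr15:72658183-72658724) beside 20 for its labelled peak, with the apex 5667 bp from the nearest annotated start. CTSD had one of height 36 in intron 4 of the canonical transcript and CTSZ one of height 37 in intron 2, beside 16 and 20. Both lay at alternative start sites of the same gene, with apexes 74 and 222 bp away. Of the autophagy genes, ATG7 had an intronic peak of height 38 beside 24 for its labelled peak, and the unlabelled ATG13 one of height 52 in intron 18. In all, 36 further peaks lay over 22 of the 57 members, 28 of them unlabelled. The rest carried the label of another gene, and the share of all genes with such further peaks was not computed.

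Motif content near the apex was compared with the other labelled peaks and with the 8243 unlabelled peaks. The E-box CACGTG was present in 17.1% of member peaks (8.53 to 31.3%), beside 10.2% of other labelled and 7.52% of unlabelled peaks. TCACGTGA was present in 7.32% (2.52 to 19.4%), beside 1.85% and 0.497%. The E-box share was 21.1% in autophagy peaks, 4 of 19, and 16.7% in lysosome peaks, 3 of 18. This order of the classes changed with the window. Around the peak centre the E-box was in 1 of 19 and 3 of 18, and around the nearest own start in 1 of 19 and 4 of 18. The 3 peaks with TCACGTGA were not high, at 29 for ATG3, 19 for GLA and 17 for MCOLN1. A match is a description of the bases and not a site of binding.

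The motif shares of the 2 classes stood farthest apart for the GC box and the PU.1-type motif in the windows around the apex. Around the peak centre and the nearest own start, these 2 motifs stood closer together, and the ETS motif CCGGAAG stood farthest apart. The GC box GGGCGG was present in 17 of 19 autophagy peaks, 89.5% (68.6 to 97.1%), and 9 of 18 lysosome peaks, 50% (29.0 to 71.0%), beside 70.95% of other labelled and 22.2% of unlabelled peaks. GAGGAAG was present in 1 of 19 autophagy peaks, 5.26% (0.935 to 24.6%), and 7 of 18 lysosome peaks, 38.9% (20.3 to 61.4%), beside 17.1% and 29.4%. Around the peak centre the counts were 14 of 19 and 12 of 18 for the GC box and 3 of 19 and 5 of 18 for GAGGAAG, and around the nearest own start 17 of 19 and 14 of 18, and 1 of 19 and 4 of 18. The lysosome peaks include the upstream peaks of CTSC, LAPTM5 and PSAP, which cover no start of their gene, whereas every autophagy peak covers one. None of these upstream peaks held the GC box near the apex, and those of CTSC and PSAP held GAGGAAG. No difference between the classes was tested. The ETS motif CCGGAAG was present in 4 of 19 autophagy peaks, 21.1%, and 0 of 18 lysosome peaks (upper bound 17.6%), beside 19.5% and 6.83%. Around both the peak centre and the nearest own start it was in 7 of 19 and 1 of 18. The shares of other labelled peaks there were 15.5% and 18.7%, the latter over the 6941 with an annotated start of their own gene. Median GC content of the 300 bp windows was 63.7% in autophagy and 59.8% in lysosome peaks, with 25 and 19 CpG per window, beside 64.7% and 25 in other labelled peaks and 53.7% and 5 in unlabelled peaks. The part of GC content in the motif shares was not tested. The retinoid half-site AGGTCA, the element of retinoid receptors, was present in 0 of 19 autophagy peaks (upper bound 16.8%), 2 of 18 lysosome peaks, those of GAA and PSAP, and 2 TFEB peaks, beside 13% of other labelled and 23.3% of unlabelled peaks. Within 250 bp of the apex it was present in 3 of 19 autophagy and 5 of 18 lysosome peaks, and within 150 bp of the nearest own start in 2 of 19 and 0 of 18. The CRE TGACGTCA was found in 1 member peak, that of ATG5, beside 2.72% and 0.631%.

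**Figure D5:**
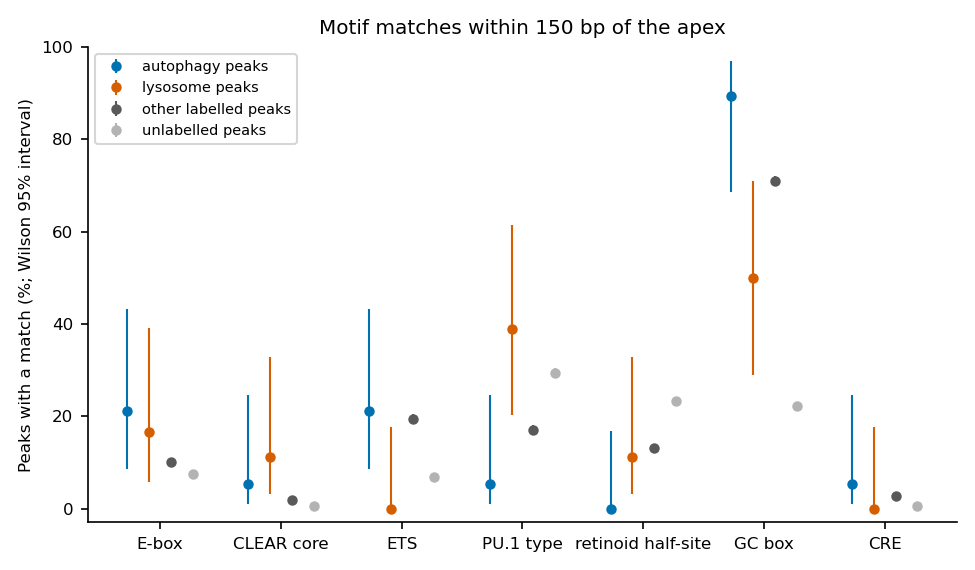
Share of peaks with each motif within 150 bp of the apex (y axis, %; lines are Wilson 95% intervals) for the 19 autophagy, 18 lysosome, 7128 other labelled and 8243 unlabelled peaks. The GC box is in 17 of 19 autophagy and 9 of 18 lysosome peaks, and the PU.1-type motif in 1 and 7, in this window.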

How the data were processed

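Per the submitters' notes and the methods, the authors cleaned single-end reads (Trimmomatic), mapped them (Bowtie2, hg19), discarded duplicates (SAMtools), ran SEACR against paired controls and kept peaks that passed an irreproducible discovery rate of 0.05 over both replicates. Versions are not given in the sources used here. No column of the list names a library, and the list was taken as that of the induced anti-PML::RARA pair from the study's description of it. The deposited signal values are 1 total and 1 largest signal (height) per peak for both replicates. The headers of these 2 columns read the other way, and their roles were taken from the values, since the total was below height times width in all 15412 peaks. Their normalization is not given in the sources used here. The apex is the centre of the interval of largest signal, and 34 peaks without an interval end used its start.

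Start sites came from GENCODE release 44 on GRCh37 and bases from GRCh37, within which all peaks fit. Python 3.11.15, pandas 2.3.3, numpy 2.4.6 and scipy 1.17.1 were used, and scripts were tested on simulated data. Shares carry Wilson 95% intervals. Depth per library is unknown, so intervals cover counting only. Members and lists were chosen with earlier results of these data known. Named with coordinates were the 10 highest, 5 lowest, 5 widest and 5 narrowest peaks, the extremes of each role group, genes with several or no labels, and TCACGTGA peaks. Other genes were described by height. Alternatives changed the promoter definition, unit of counting, width classes, measure and motif window.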

Additional observations from a re-analysis of the deposited data

How the results depend on the processing

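Of 52 alternative settings of 11 results, 47 were counted as unchanged. A count had to stay within 1.5 times its value, and a share within its interval. A difference of mean log2 had only to keep the sign of the difference of medians. The retinoid half-site, the PU.1-type motif and the CRE were not among the 11 results. When peaks lower than the list's median height, 25, were dropped, 16 members kept a promoter peak (8 autophagy and 6 lysosome genes), beside 17.5% of protein-coding genes. The difference in width between members and other labelled peaks changed direction with the summary, as the difference of mean log2 width was -0.037 where the member median was the larger. GGGCGG rose to 85.4% of member peaks within 150 bp of the nearest own start. The share was 73.55% of the 6941 other labelled peaks with an annotated own start. Shares of rarer motifs moved with the window. AGGTCA was in 24.4% of member peaks within 250 bp of the apex, above the interval of its 9.76% within 150 bp (3.86 to 22.6%). Among other labelled peaks it was in 20.3% within 250 bp and 13% within 150 bp. TGACGTCA was in 0 of 41 around the peak centre, beside 1.81% of other labelled peaks. CACGTG was in 9.76% of member peaks around the peak centre and 24.4% within 250 bp of the apex, beside 8.0% and 14.2%. TCACGTGA was in 12.2% within 250 bp of the apex, beside 2.2%, and CCGGAAG in 19.5% around the peak centre, beside 15.5%. The definition by the canonical start was added after the data were seen. No paired analysis was possible because both replicates share 1 value per peak, and leaving out a replicate was not run for the same reason. With 1 list, 41 peaks and no depth, differences of the size seen between the classes could not be set against replicate error.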

Other observations

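Lists of related genes that were not among the members also gave shares above the 30.0% of all protein-coding genes. Of 30 further autophagy genes 16 had a labelled peak, 53.3% beside 55.9% of autophagy members. Of 48 further lysosome genes 31 had one, 64.6% beside 75% of lysosome members. Of 25 genes of the V-ATPase, the proton pump that acidifies the lysosome, 14 had one, 56%. Median heights in these lists, in the same order, were 28, 26 and 30, beside 26 in other labelled peaks. Among further autophagy genes, FOXO3, a transcription factor, had a height of 54 over 3762 bp, wider than 99.5% of all peaks, and MAP1LC3B2, a close copy of MAP1LC3B, a height of 53 over 1795 bp. Among further lysosome genes, NEU1, a sialidase, had a height of 69 and GM2A, an activator of ganglioside breakdown, a height of 58, both above the highest member peak of 56. The tetraspanin CD63 had a height of 26 over 2532 bp and CD68, a marker of macrophages, a height of 34 over 1256 bp. TCIRG1, a V-ATPase subunit, had 2 labelled peaks, of heights 36 and 23. These genes were named after their values were seen.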
